A study of Sus scrofa with 4 samples.

Results

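The genes described here are 47 immediate early and stress response genes, taken by gene name from the count tables of sorted pig lung cells. Of them 45 were found among 29263 genes, and JUND and BTG2 are not analysed here.

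Immediate early genes are transcribed within minutes of a stimulus from inducers that are already present in the cell, without new protein synthesis, and many of their products are transcription factors or feedback inhibitors of the signal that induced them. Growth factor receptors, the ERK, JNK and p38 MAP kinases, the factors SRF and CREB, and NF-kB are their main inducers, and their mRNAs are mostly short-lived. In solid tissues such as lung they are also known for being induced while tissue is minced and digested to single cells.

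RNA was sequenced from lung cells of pigs with the genotype LGR5-H2B-GFP knock-in, in which green fluorescent protein fused to a histone reports LGR5, a receptor for the Wnt-amplifying R-spondins. Cells were sorted on the reporter into GFP-HI cells, which were bright, and GFP-NEG cells, which were dark, with 2 libraries of each. All 4 libraries came from knock-in animals, from digested lung, and after exclusion of dead cells. No treatment, age or sex is given per library, and the shared protocol covers adult and fetal lung as well as antibodies against EPCAM and NGFR without saying which applied, while the name of the deposited comparison table carries the words adult pig. A histone fusion can outlast transcription of LGR5, so GFP-HI is defined by reporter protein and not by LGR5 mRNA.

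The GFP-HI libraries held 24200550 and 24689986 counts and the GFP-NEG libraries 6292253 and 7045652, so depth differed with the group. LGR5 was at 149 ± 4.63 CPM (read count per TMM-scaled library total; SD, n = 2) in the bright cells and at 1.16 ± 0.555 CPM in the dark cells (SD, n = 2), so the gene that the reporter follows differed in the direction of the labels. Of 52 cell type marker genes tested, 31 were lower and 5 higher in GFP-HI. The 6 fibroblast markers summed to 62846 and 55091 CPM in GFP-HI and to 19659 and 6766 CPM in GFP-NEG.

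The question of the comparison is how lung cells with a bright LGR5 reporter differ from reporter-negative cells. For the early response genes, 29 of the 45 were lower in GFP-HI and 0 were higher at an adjusted p under 0.05 (edgeR's quasi-likelihood test, Benjamini-Hochberg over 19682 genes). Over all tested genes 27.6% were called lower and 8.35% higher. The median log2 fold change of the 45 genes was -2.02, against -0.25 over all tested genes, and 42 of them had a negative value. The median over all genes depended on the filter: over 26737 genes it was -1.21 with no filter on low counts and -1.30 under DESeq2. At an unadjusted p under 0.05, 33 were lower and 1, SOCS1, was higher, and DESeq2 called 29 lower and 0 higher. The authors' deposited table, which holds the DESeq2 values for 44 of these genes, calls 11.2% of its 16250 genes lower. The share of all tested genes at an unadjusted p under 0.05 is not given, so those counts have no background beside them. All 45 passed the filter on low counts. Where only genes with at least 10 CPM in 2 libraries were tested, 25 of the 41 early response genes left were called lower, against 10.5% of 10260 genes.

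The genes held 0.654% and 0.339% of all counts in GFP-HI, against 2.63% and 2.28% in GFP-NEG. For 38 of the 45, both GFP-HI libraries lay below both GFP-NEG libraries in CPM, which was the case for 42.0% of all tested genes. The groups overlapped for 6 genes (EGR1, CEBPD, ZFP36L2, SOCS1, GADD45A and GADD45G), and 1 gene, ZFP36L1, lay higher in both GFP-HI libraries, against 27.7% of all tested genes.

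**Figure D1:**
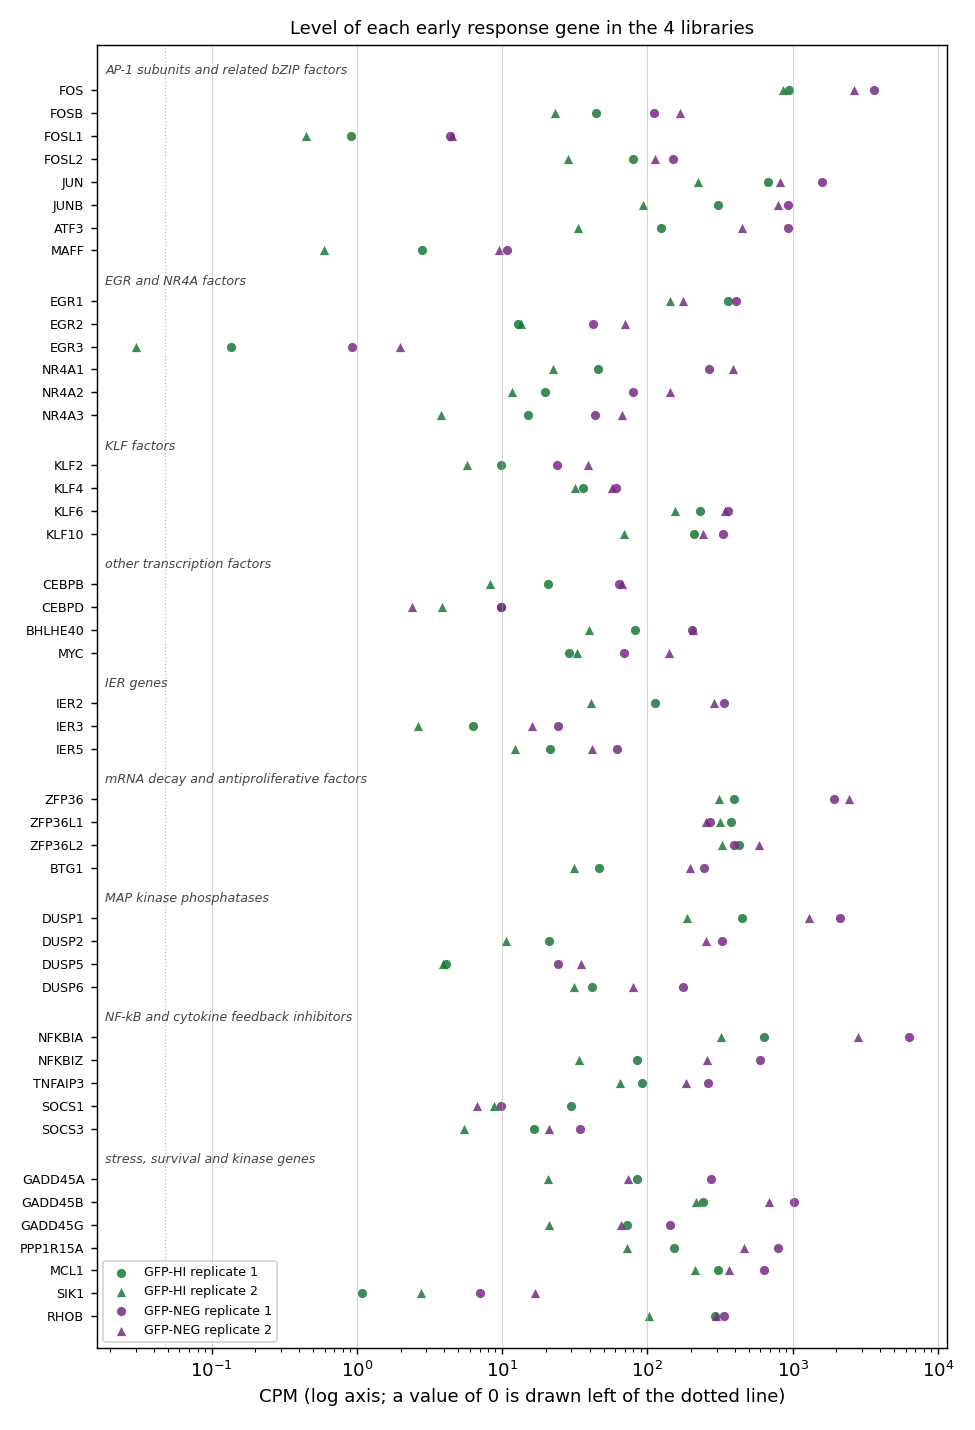
CPM of each of the 45 early response genes (rows, grouped by role) in the 4 libraries, on a log axis; circles are replicate 1 and triangles replicate 2, green for GFP-HI and purple for GFP-NEG. For 38 genes both green points lie left of both purple points, and the 0 of EGR3 in GFP-HI replicate 2 is drawn left of the dotted line.

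These calls rest on 2 libraries a group, labelled as biological replicates 1 and 2. The edgeR SE and p of a gene follow the dispersion trend at its level and do not measure its own spread between replicates. With 1 library left out, where the lone library of a group is assumed to vary like the other group, between 6 and 23 of the genes were called lower: 23 without GFP-HI replicate 1, 6 without GFP-HI replicate 2, and 18 without either GFP-NEG library. The shares of all tested genes called lower in these fits were 13.2%, 12.0%, 23.3% (without GFP-NEG replicate 1) and 8.98% (without GFP-NEG replicate 2). NR4A1, NR4A2, DUSP2 and DUSP5 were the 4 genes whose call held in each of these fits, and 20 of the 23 calls without GFP-HI replicate 1 were among the 29.

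Leukocyte RNA moved with the same groups. The 5 leukocyte markers (PTPRC, CORO1A, LAPTM5, CYTIP and ARHGDIB), all 5 called lower, had sums of 174 and 410 CPM in the bright cells and of 2674 and 4505 CPM in the dark cells. Lower in GFP-HI were also 5 of 6 B cell, 5 of 6 T and NK cell, 3 of 6 macrophage, 3 of 4 neutrophil and 4 of 5 endothelial markers. In GFP-HI against GFP-NEG, the sums ranged from 84.5 to 177 CPM against 245 to 599 CPM for B cells, 77.9 to 141 CPM against 490.0 to 860 CPM for T and NK cells, and 187 to 218 CPM against 487 to 818 CPM for macrophages. They were 166 to 184 CPM against 794 to 1845 CPM for neutrophils and 127 to 150 CPM against 362 to 734 CPM for endothelium. Of the epithelial markers 1 of 6 was lower, and the smooth muscle and pericyte list had 3 of 6 lower and 1 higher. Both erythroid markers tested were lower, and ALAS2 and SLC4A1 were at 0 in both GFP-HI libraries, as was HBB in replicate 2. None of the other markers was at 0 in any library, and their part in the lower early response genes was not tested. In such bulk samples, fewer cells of a type and less RNA per cell cannot be told apart.

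**Figure D2:**
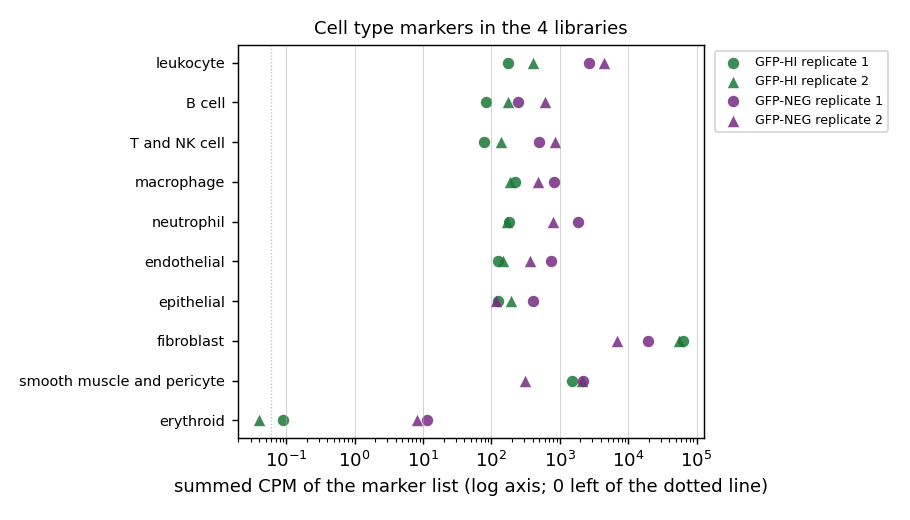
Summed CPM of each list of cell type markers (rows) in the 4 libraries, on a log axis, with symbols as circles for replicate 1 and triangles for replicate 2, green for GFP-HI and purple for GFP-NEG. The leukocyte sums are 174 and 410 CPM in GFP-HI and 2674 and 4505 CPM in GFP-NEG, the fibroblast sums lie the other way round, and the erythroid sum of 0 in GFP-HI replicate 2 is drawn left of the dotted line.

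AP-1, the dimer of FOS and JUN family proteins, is the classical early transcription factor, and ATF3 and MAFF are related basic leucine zipper proteins. Of the 8 genes found in this group, 4 were lower in GFP-HI (FOSB, JUNB, ATF3 and MAFF), and the median log2 fold change was -2.08. FOS itself was at 946 and 855 CPM in GFP-HI, against 3639 and 2641 CPM in GFP-NEG. The libraries did not overlap, but the log2 fold change of -1.80 ± 1.02 (SE) did not pass the edgeR test (adjusted p = 0.17). Under DESeq2 FOS was called lower, with a log2 fold change of -1.81 (adjusted p = 0.0015). The authors' deposited table holds the same values for FOS, so it is not separate evidence. JUN, the main partner of FOS, was at 681 and 225 CPM against 1598 and 821 CPM, which gave -1.42 ± 0.83 on the log2 scale (adjusted p = 0.18). With single libraries left out JUN ran from -2.31 (without GFP-HI replicate 1) to -0.76 (without GFP-HI replicate 2), with no call.

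ATF3, a repressor that many stresses induce, was at 124 and 33.1 CPM in GFP-HI and at 933 and 448 CPM in GFP-NEG. The log2 fold change of -3.13 ± 0.75 (SE; adjusted p = 2.3e-04) was the largest of the group, and each GFP-HI library lay at least 2-fold below each GFP-NEG library. FOSB, JUNB and MAFF were lower as well, with log2 fold changes of -2.05, -2.10 and -2.57 (edgeR adjusted p = 0.0012, 0.021 and 0.011). FOSL1 was low everywhere, at 0.906 and 0.446 CPM against 4.35 and 4.49 CPM, and its log2 fold change of -2.69 had an adjusted p = 0.065, or 0.040 under DESeq2. FOSL2, at -1.27, had an adjusted p = 0.057, and 0.040 with the replicate number as a block. It was at -2.08 and called without GFP-HI replicate 1 (adjusted p = 0.0497) and at -0.63 without GFP-HI replicate 2. Without GFP-HI replicate 2 the calls ended at log2 fold changes of -1.55 for FOSB, -1.40 for JUNB, -2.41 for ATF3 and -1.77 for MAFF. FOSB also lost its call without GFP-NEG replicate 2 (-1.77), MAFF without GFP-NEG replicate 1 (-2.43), and JUNB without GFP-NEG replicate 1 (-1.93) or 2 (-2.25). The value of MAFF was -3.94 without GFP-HI replicate 1.

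The zinc finger factors EGR1 to EGR3 and the orphan nuclear receptors NR4A1 to NR4A3 are induced by serum, antigen receptors and calcium signals. Here 5 of the 6 were lower in GFP-HI, with a group median of -2.69, and EGR1 was the exception. NR4A1 (Nur77) was at 45.9 and 22.5 CPM in GFP-HI and at 266 and 389 CPM in GFP-NEG, which gave -3.26 ± 0.66 on the log2 scale (adjusted p = 2.1e-05). NR4A2 was at 19.7 and 11.7 CPM against 79.3 and 144 CPM, or -2.83 on the log2 scale (adjusted p = 1.1e-05). NR4A3 was at 15.0 and 3.77 CPM against 43.6 and 67.0 CPM, a log2 difference of -2.56 (adjusted p = 5.7e-05). All 3 receptor genes were thus lower in each GFP-HI library than in either GFP-NEG library.

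EGR1 was at 357 and 142 CPM in GFP-HI, against 404 and 175 CPM in GFP-NEG. Replicate 1 was the higher library in both groups and the groups overlapped. Its log2 fold change was -0.21 ± 0.65 (adjusted p = 0.83), and the fits without 1 library gave -0.91 to 0.57. EGR2 was at 12.8 and 13.5 CPM against 41.9 and 70.6 CPM, a log2 difference of -2.10 ± 0.54 (adjusted p = 5.1e-04). EGR3 rested on few reads: its counts were 3 and 0 in the bright cells, 6 and 18 in the dark cells. The pooled ratio of GFP-HI to GFP-NEG was 0.046 with a 95% interval of 0.0089 to 0.15 (exact, counting error only). Its edgeR adjusted p = 0.0084 became 0.11 with the replicate block and 0.085 under DESeq2. Without single libraries, EGR2 lost its call when GFP-HI replicate 1 (-1.90) or GFP-NEG replicate 2 (-1.71) was left out, and NR4A3 when GFP-HI replicate 2 was (-1.78). EGR3 had no call in the 3 of these fits that tested it.

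Of the 4 Krüppel-like factors, 1 was lower in GFP-HI. KLF2, a factor of quiescent lymphocytes and of endothelium under flow, was at 9.83 and 5.70 CPM in GFP-HI and at 23.9 and 38.9 CPM in GFP-NEG. It passed the test, with a log2 difference of -2.02 ± 0.58 (adjusted p = 0.0023). KLF4, KLF6 and KLF10 had log2 fold changes of -0.79, -0.85 and -1.05 with adjusted p = 0.20 to 0.33, although both GFP-HI libraries lay below both GFP-NEG libraries for each. KLF10 was at -1.93 without GFP-HI replicate 1 and at -0.38 without GFP-HI replicate 2, and KLF6 at -0.51 without the latter, none of them called. Whether KLF2 differs from the other 3 was not tested. The call of KLF2 ended without GFP-HI replicate 2 (-1.57) and without GFP-NEG replicate 2 (-1.66).

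CEBPB, BHLHE40 and MYC were lower in GFP-HI and CEBPD was not called. MYC, a growth-promoting factor induced by mitogens, was at 28.6 and 32.8 CPM in GFP-HI and at 69.4 and 141 CPM in GFP-NEG, which gave -1.78 ± 0.54 on the log2 scale (adjusted p = 0.0039). CEBPB, a leucine zipper factor of inflammatory and acute phase responses, was at 20.7 and 8.23 CPM against 64.0 and 67.1 CPM, which gave -2.18 on the log2 scale (adjusted p = 3.0e-04). BHLHE40, a repressor linked to the circadian clock and to hypoxia, had a log2 difference of -1.74 (adjusted p = 0.012). CEBPD, at 9.88 and 3.87 CPM against 9.78 and 2.41 CPM, had a log2 difference of 0.19 ± 0.79 (adjusted p = 0.88), which was -0.11 with scaling by library size alone, -0.05 with upper-quartile scaling and -0.07 with thinned counts. Replicate 1 was higher than replicate 2 in both groups for CEBPD. Without GFP-HI replicate 2, CEBPB, BHLHE40 and MYC stood at -1.57, -1.22 and -1.77 with no call. MYC also lost its call without GFP-HI replicate 1 (-1.52) or GFP-NEG replicate 2 (-1.21), and BHLHE40 without GFP-NEG replicate 1 (-1.69) or 2 (-1.77).

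The immediate early response genes IER2, IER3 and IER5, which encode small nuclear or stress-linked proteins, were all 3 lower in GFP-HI. IER3 was at 6.30 and 2.63 CPM in GFP-HI and at 24.4 and 16.1 CPM in GFP-NEG, which gave -2.18 ± 0.65 on the log2 scale (adjusted p = 0.0035). For IER2 and IER5 the values were -2.02 and -1.61 (adjusted p = 0.0059 and 0.0086). Without GFP-HI replicate 2 the 3 values were -1.39 for IER2, -1.61 for IER3 and -1.19 for IER5, none of them called. IER3 (-1.80) and IER5 (-1.25) also lost their calls without GFP-NEG replicate 1, and IER5 without GFP-HI replicate 1 (-1.94).

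**Figure D3:**
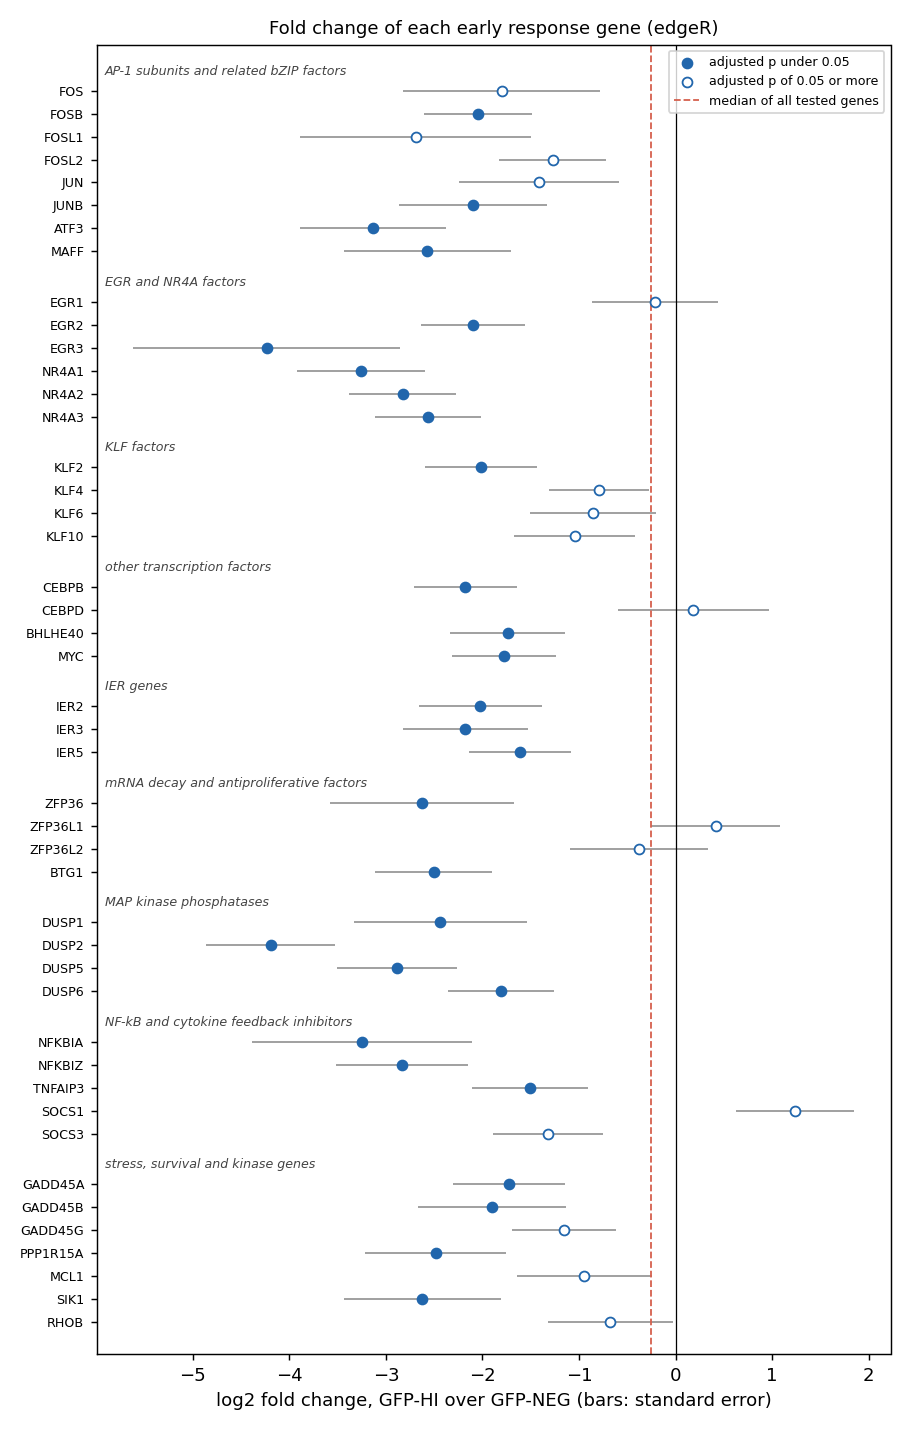
The log2 fold change of each early response gene, GFP-HI over GFP-NEG, with its standard error as a bar (edgeR, 2 libraries a group); filled points have an adjusted p under 0.05 and open points do not. All 29 filled points lie left of the dashed line at -0.25, the median of all 19682 tested genes, and ZFP36L1, CEBPD and SOCS1 lie right of 0.

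ZFP36 (tristetraprolin), ZFP36L1 and ZFP36L2 bind AU-rich elements and speed the decay of early response and cytokine mRNAs. ZFP36 was at 393 and 312 CPM in GFP-HI and at 1922 and 2435 CPM in GFP-NEG, which gave -2.63 ± 0.95 on the log2 scale (adjusted p = 0.019). ZFP36L1 was at 377 and 317 CPM against 268 and 253 CPM, which gave 0.42 ± 0.67 on the log2 scale (adjusted p = 0.67). ZFP36L2 was at 427 and 325 CPM against 397 and 582 CPM, which gave -0.38 ± 0.71 on the log2 scale (adjusted p = 0.72). ZFP36 was therefore the only one of the family to pass the test, and the value of ZFP36L1 was -0.0045 with scaling by library size alone. BTG1, an antiproliferative gene of quiescent cells, was at 46.7 and 31.2 CPM against 247 and 195 CPM, which gave -2.51 on the log2 scale (adjusted p = 2.4e-04). The call of ZFP36 ended when GFP-HI replicate 1 (-2.65), GFP-HI replicate 2 (-2.37) or GFP-NEG replicate 2 (-2.48) was left out, and that of BTG1 without GFP-HI replicate 2 (-2.16).

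The ratio of 2 genes within 1 library does not depend on how libraries are scaled. The following pairs were chosen after the values were seen and carry no test. There were 0.959 and 1.02 counts of ZFP36L1 for each count of ZFP36 in the GFP-HI libraries, against 0.139 and 0.104 in the GFP-NEG libraries. Within replicate 1 the ratio was 6.88 times as high in GFP-HI, and within replicate 2 it was 9.78 times as high. For ZFP36L2 over ZFP36 the same comparison gave 5.26 and 4.35. EGR1 over EGR2 was 27.9 and 10.6 in the bright cells against 9.65 and 2.47 in the dark cells, so that the groups lay close together but did not overlap. EGR1 over FOS was 0.377 and 0.167 against 0.111 and 0.0661.

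**Figure D4:**
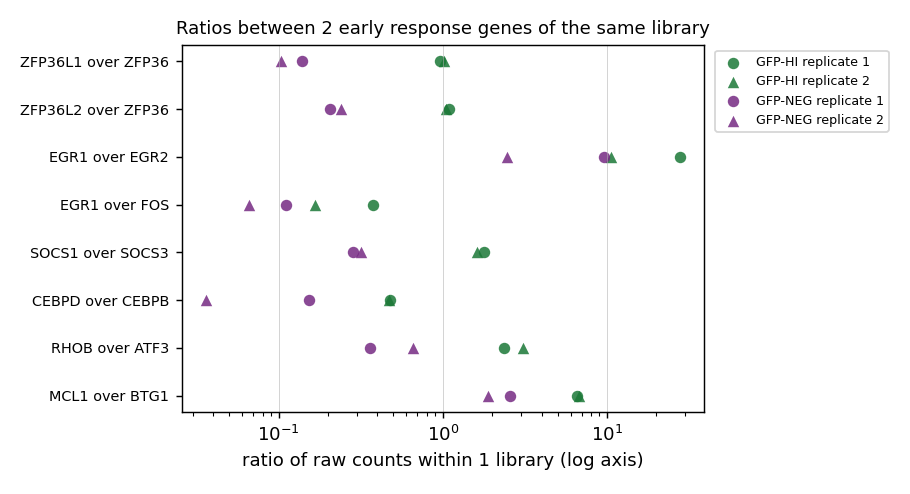
Ratio of the raw counts of 2 early response genes in each library, on a log axis, for 8 pairs chosen after the values were seen; circles are replicate 1 and triangles replicate 2, green for GFP-HI and purple for GFP-NEG. Each of the 8 ratios is higher in both GFP-HI libraries, and ZFP36L1 over ZFP36 is 0.959 and 1.02 in GFP-HI against 0.139 and 0.104 in GFP-NEG.

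The MAP kinase phosphatases DUSP1, DUSP2, DUSP5 and DUSP6 dephosphorylate the kinases that induce them, and all 4 were lower in GFP-HI, with a median of -2.66. DUSP2 (PAC-1), a nuclear phosphatase known from activated lymphocytes, was at 21.0 and 10.7 CPM in GFP-HI and at 327 and 252 CPM in GFP-NEG. The log2 fold change of -4.19 ± 0.67 (adjusted p = 3.95e-08) was the largest of the set apart from that of EGR3, and it was -3.95 within replicate 1 and -4.55 within replicate 2. DUSP1, which acts mainly on p38 and JNK, was at 448 and 187 CPM against 2133 and 1298 CPM, which gave -2.43 ± 0.90 on the log2 scale (adjusted p = 0.021). The ERK phosphatases DUSP5 and DUSP6 had values of -2.89 and -1.81 (adjusted p = 5.7e-05 and 0.0043). Without GFP-NEG replicate 1, DUSP6 stood at -1.07 and DUSP1 at -1.98, both without a call. They also had none without GFP-HI replicate 2 (-1.56 and -1.87), and DUSP6 had none without GFP-HI replicate 1 (-1.91).

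Among the inhibitors that NF-kB and cytokine receptors induce against themselves, NFKBIA, NFKBIZ and TNFAIP3 were lower in GFP-HI, and SOCS1 and SOCS3 did not pass the test. NFKBIA, the inhibitor that holds NF-kB in the cytoplasm, was at 636 and 321 CPM in GFP-HI and at 6302 and 2810 CPM in GFP-NEG, which gave -3.25 ± 1.14 on the log2 scale (adjusted p = 0.015). NFKBIZ, a nuclear cofactor of NF-kB, was at 85.1 and 33.9 CPM against 592 and 256 CPM, which gave -2.83 on the log2 scale (adjusted p = 2.3e-04). TNFAIP3 (A20), a ubiquitin-editing enzyme that ends NF-kB signalling, had a log2 difference of -1.51 (adjusted p = 0.035). Replicate 1 was the higher library in both groups for all 3. TNFAIP3 lost its call in each fit with a library left out (-1.78 to -1.19), and NFKBIA (-2.78) and NFKBIZ (-2.26) without GFP-HI replicate 2.

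The cytokine signalling suppressors SOCS1 and SOCS3 bind JAK kinases and their receptors. SOCS1 was at 29.9 and 8.77 CPM in GFP-HI and at 9.78 and 6.69 CPM in GFP-NEG, so that only replicate 1 of GFP-HI stood above the rest. Its log2 fold change of 1.24 ± 0.62 was the highest of the set and did not pass the test (adjusted p = 0.11). It was 0.22 without GFP-HI replicate 1 and 1.94 without GFP-HI replicate 2, where it was called (adjusted p = 0.044). SOCS3 was at 16.7 and 5.45 CPM against 34.3 and 20.9 CPM, or -1.32 on the log2 scale (adjusted p = 0.056, and 0.022 with the replicate block). It was at -2.21 and called without GFP-HI replicate 1 (adjusted p = 0.044), at -0.66 without GFP-HI replicate 2 and at -0.87 without GFP-NEG replicate 1. Counts of SOCS1 for each count of SOCS3 were 1.80 and 1.61 in the bright cells against 0.285 and 0.319 in the dark cells.

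Of the 7 stress, survival and kinase genes, GADD45A, GADD45B, PPP1R15A and SIK1 were lower in GFP-HI. SIK1, a kinase that CREB induces, had the largest change, at 1.09 and 2.78 CPM in GFP-HI and 6.99 and 16.8 CPM in GFP-NEG, which gave -2.62 ± 0.82 on the log2 scale (adjusted p = 0.0053). PPP1R15A (GADD34), which guides the phosphatase that restores translation after stress, was at 152 and 72.6 CPM against 799 and 461 CPM, which gave -2.48 on the log2 scale (adjusted p = 0.0029). GADD45B, a growth arrest and DNA damage gene, was at 242 and 215 CPM against 1021 and 682 CPM, which gave -1.90 on the log2 scale (adjusted p = 0.039). The family member GADD45A was uneven between replicates, at 84.5 and 20.6 CPM against 274 and 73.6 CPM, and its groups overlapped. Its log2 fold change of -1.73 (adjusted p = 0.010) was -2.98 without GFP-HI replicate 1, -0.99 without GFP-HI replicate 2 and -0.43 without GFP-NEG replicate 1, with no call in the latter pair, and its DESeq2 adjusted p was 0.057, or 0.0025 with the replicate block. Within the replicates its difference was -1.70 and -1.83.

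GADD45G, RHOB, which encodes a small GTPase of endosomes, and MCL1, an anti-apoptotic BCL2 relative with a short-lived protein, were not called. MCL1 was at 307 and 212 CPM in GFP-HI and at 631 and 367 CPM in GFP-NEG, which gave -0.94 ± 0.70 on the log2 scale (adjusted p = 0.31), and -0.45 without GFP-NEG replicate 1. RHOB and GADD45G had log2 fold changes of -0.68 and -1.16 (adjusted p = 0.45 and 0.079). GADD45G was at -2.19 and called without GFP-HI replicate 1 (adjusted p = 0.047), at -0.46 without GFP-HI replicate 2 and at -0.43 without GFP-NEG replicate 1, and RHOB was at -1.49 and -0.024 without GFP-HI replicate 1 and 2. RHOB differed little within replicate 1, where the difference was -0.19, and more within replicate 2, where it was -1.54. GADD45B had no call in any fit with a library left out (-2.20 to -1.53), PPP1R15A had none without GFP-HI replicate 2 (-1.98), and SIK1 had none without GFP-HI replicate 1 (-1.93) or GFP-NEG replicate 2 (-1.89).

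The difference between the fractions was next taken within each replicate, on the assumption that a replicate number marks 1 animal. GFP-HI lay below GFP-NEG for 41 of the 45 genes in replicate 1 and for 42 in replicate 2, against 55.9% and 57.1% of all tested genes. It was at least 2-fold lower for 34 genes in replicate 1 and for 38 in replicate 2, against 36.0% and 41.4% of all tested genes. The median difference of the set was -1.60 in replicate 1 and -2.38 in replicate 2 (log2 CPM), against -0.19 and -0.39 over all tested genes. For 38 of the 45 genes the difference was more negative in replicate 2, against 52.9% of all tested genes. NR4A3, at -1.54 and -4.10, and MAFF, at -1.90 and -3.72, had differences of this kind, while DUSP6, at -2.08 and -1.34, and FOS, at -1.94 and -1.63, had the larger difference in replicate 1.

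**Figure D5:**
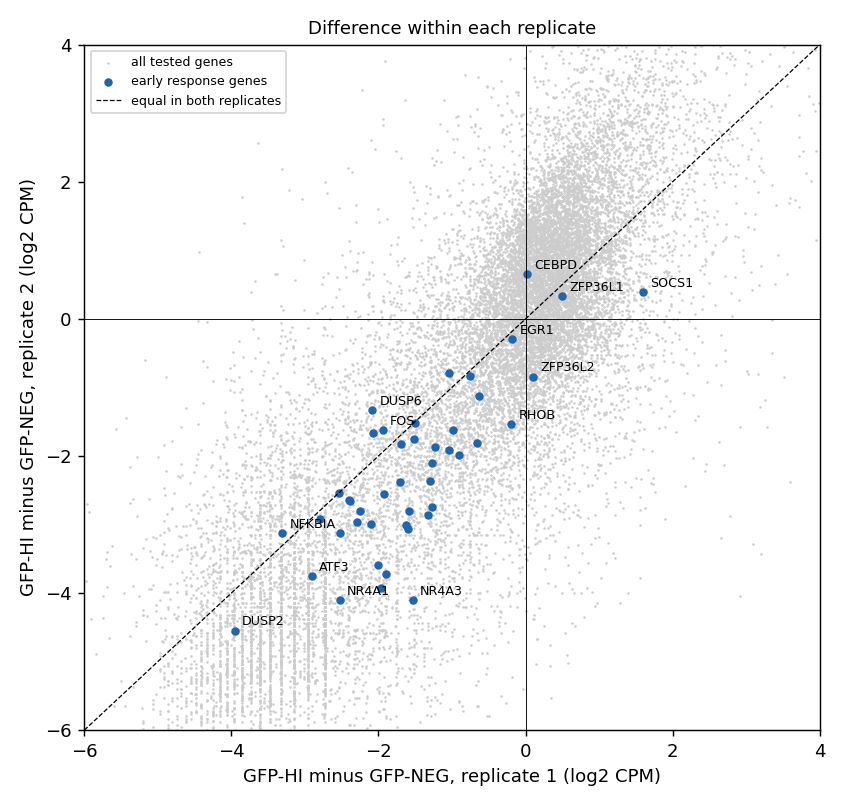
Difference in log2 CPM between GFP-HI and GFP-NEG within replicate 1 (horizontal) and within replicate 2 (vertical), for the 45 early response genes (blue) and all tested genes (grey; those beyond the axes are not drawn); the dashed line marks equal differences. The set lies mostly in the lower left, and 38 of its 45 points fall below the dashed line.

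The larger difference of replicate 2 went with lower levels in its GFP-HI library. Between the GFP-HI libraries, 42 of the 45 genes were lower in replicate 2 and 22 were at least 2-fold lower, against 45.5% and 12.4% of all tested genes, and the median of the set was -0.99 (log2 CPM) against 0.00 over all tested genes. The 3 genes higher in GFP-HI replicate 2 were EGR2, MYC and SIK1. In replicates 1 and 2 of GFP-HI, JUNB was at 306 and 93.7 CPM, ATF3 at 124 and 33.1 CPM, and KLF10 at 208 and 68.6 CPM. FOS was at 946 and 855 CPM. Between the GFP-NEG libraries, 30 genes were lower and 15 higher in replicate 2, against 44.8% of all tested genes lower. The median of the set there was -0.34, against 0.11 over all tested genes. At least 2-fold lower were 8 genes of the set, against 13.0% of all tested genes. Among the higher were NR4A1, NR4A2, NR4A3, MYC and ZFP36. In replicates 1 and 2 of GFP-HI, the leukocyte sum was 174 and 410 CPM. The B cell sum was 84.5 and 177 CPM, and the T and NK cell sum 77.9 and 141 CPM. The macrophage sum was 218 and 187 CPM and the neutrophil sum 184 and 166 CPM, so these lists did not all move the same way. Their part in the lower early response genes of GFP-HI replicate 2 was not tested. With 1 library of each kind, this difference between replicates has no test.

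The wider pathway was read from 7 lists with 111 genes, of which 104 were tested: 24 were lower, 4 were higher, and the median log2 fold change was -0.28. Over all tested genes 27.6% were lower, 8.35% were higher and the median was -0.25, so the lists as a whole lay near the background. Of 29 other early response genes, 14 were lower and 3 higher, with a median of -1.42. AREG, an EGF receptor ligand, was at 0.00 and 0.74 CPM in GFP-HI and at 7.30 and 18.0 CPM in GFP-NEG (adjusted p = 4.0e-06), and CXCL8, the neutrophil-attracting chemokine, was at 15.3 and 24.6 CPM against 339 and 175 CPM, or -3.69 on the log2 scale (adjusted p = 5.9e-07). SPRED1 and SPRY2, which encode feedback inhibitors of receptor tyrosine kinase signalling, rose, with values of 2.08 and 1.98 (adjusted p = 5.8e-04 and 0.0018). SPRED1 was at 79.4 and 94.8 CPM against 31.8 and 9.43 CPM, and SPRY2 at 26.9 and 54.9 CPM against 12.6 and 8.22 CPM, so for both the GFP-HI libraries lay above the GFP-NEG libraries. The call of SPRED1 ended without GFP-NEG replicate 2 (1.41), and that of SPRY2 without GFP-HI replicate 2 (1.45) or GFP-NEG replicate 2 (1.66). With single libraries left out, 9 to 13 genes of the list were lower and 0 to 5 higher.

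Few of the kinases and factors that induce early genes were called. Of 24 tested genes of the ERK, JNK and p38 cascades with SRF, its cofactors and CREB, 2 were lower and 1 was higher, with a median of 0.12. RPS6KA1, which encodes the ERK-activated kinase RSK1, was at 30.7 and 24.1 CPM in GFP-HI and at 302 and 303 CPM in GFP-NEG (-3.46 on the log2 scale, adjusted p = 4.8e-06). MAPKAPK2, the kinase downstream of p38, was lower, at 19.9 and 7.44 CPM against 48.4 and 22.3 CPM (adjusted p = 0.037). MRTFB, a cofactor of SRF, rose by 1.41 on the log2 scale (adjusted p = 0.022). With single libraries left out, the call of MAPKAPK2 held in 1 of 4 fits, with values of -2.13 to -0.65, and that of MRTFB in 1 of 4, with values of 0.98 to 2.00. The MRTFB log2 fold change, the only higher call of the list, also lost its call with library-size scaling (1.03), upper-quartile scaling (1.13), the 10 CPM filter (1.12) and DESeq2 with the replicate block (adjusted p = 0.052), and under both of these scalings 4 genes of the list were lower.

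Of 11 NF-kB subunits and kinases, 4 were lower and 0 higher, with a median of -0.91. REL, the subunit c-Rel of lymphoid and myeloid cells, was at 14.1 and 15.7 CPM in GFP-HI and at 120 and 103 CPM in GFP-NEG, which gave -2.91 on the log2 scale (adjusted p = 6.3e-06). The inhibitor gene NFKBIE fell by 2.68 (adjusted p = 1.4e-04), and BCL3 and IKBKB were the other 2. With single libraries left out 1 to 3 of the list were lower, and NFKBIE lost its call without GFP-HI replicate 2 (-2.24). RELA, the widely expressed subunit p65, was at 53.2 and 28.4 CPM against 31.7 and 45.5 CPM, with a log2 difference of 0.08 (adjusted p = 0.93).

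Of the 5 other MAP kinase phosphatases tested, DUSP10 and DUSP4 were lower, with log2 fold changes of -2.33 and -1.97 (adjusted p = 0.0013 and 0.0060). Of the 8 other SOCS and BTG family genes CISH was lower, at -1.64 (adjusted p = 0.0076), and the other 7 were not called. With single libraries left out the call held in 3 of 4 fits for DUSP10 (not without GFP-HI replicate 2, at -1.93) and in 2 for DUSP4 (not without GFP-HI replicate 1, at -1.55, or GFP-NEG replicate 2, at -1.85). CISH kept its call only without GFP-NEG replicate 2. CISH encodes a suppressor of STAT5 signalling. In the integrated stress and unfolded protein response list, 1 of 17 genes was called: DDIT4, an inhibitor of mTOR signalling, was at 96.3 and 36.8 CPM against 635 and 314 CPM, or -2.83 on the log2 scale (adjusted p = 3.0e-04), a call that ended without GFP-HI replicate 2 (-2.24). ATF4, the central factor of that response, was at 231 and 386 CPM against 348 and 381 CPM, with a log2 difference of -0.24 (adjusted p = 0.82).

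Inducible heat shock genes had 0 of 10 called by edgeR, with 2 lower at an unadjusted p under 0.05 and 2 lower under DESeq2. The replicate block called 1 of them lower, thinning 1, upper-quartile or library-size scaling 2, and DESeq2 with the replicate block 3. The 10 genes summed to 2474 and 2499 CPM in GFP-HI and to 6397 and 4657 CPM in GFP-NEG. DNAJB1, a co-chaperone of HSP70, was at 363 and 183 CPM in GFP-HI and at 1321 and 569 CPM in GFP-NEG, which gave -1.79 on the log2 scale (adjusted p = 0.060). The median of the list was -0.34, near that of all tested genes. Whether any of these lists differs from the early response set was not tested.

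In the authors' deposited table, 44 of the 45 genes are listed, all but EGR3. That table calls 29 of them lower and 0 higher at an adjusted p under 0.05, against 11.2% of its 16250 genes called lower. That table rests on the same counts, and for these 44 genes its values equal those of the DESeq2 fit given here, so it is not separate evidence. The edgeR fit and that table share 27 lower calls. FOS and FOSL1 are called only in the authors' deposited table, and GADD45A, at an adjusted p = 0.057 there, is called only by edgeR.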

How the data were processed

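RNA sequencing of 4 libraries was analysed, 2 for GFP-HI and 2 for GFP-NEG. The authors deposited raw gene counts, 1 table a library. The submitters' processing notes name featureCounts, Subread 1.5.2 and DESeq2 1.37.6. Aligner and strand setting are not given in the sources used here. Genome build and annotation are not described beyond a version number in the name of the deposited comparison table. Overlapping or near-identical genes are therefore uncertain, and no coordinates or sequences are given. The authors also deposited a comparison table, per the file headers with the 4 count columns (identical to the single tables), a log2 fold change and an adjusted p-value. 4 further columns of values per sample in it were not used, since by the ranks of their values 2 of them appear to hold the other fraction than their headings name. Of the Ensembl identifiers, 834 were renamed with the symbol table provided, among them JUN, IER2 and SIK1.

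Counts were tested with edgeR 4.0.16 (R 4.3.3; filterByExpr, TMM scaling, glmQLFit and glmQLFTest, group as the only term), with Benjamini-Hochberg adjustment over 19682 genes and a threshold of 0.05. The prior degrees of freedom were infinite, so each gene took the dispersion of the trend at its level. CPM are TMM-scaled, and 1 count was worth 0.0453 to 0.0496 CPM in GFP-HI and 0.110 to 0.155 CPM in GFP-NEG. The SE is the log2 fold change divided by the square root of F. Differences within a replicate use log2 CPM with a prior count of 2. The fit was tested on simulated counts with known changes. Of 191 changed genes tested, 70 (36.6%) were called in the right direction, and 5 of 75 calls were false. The share called was 15.6% at a log2 change of 2 and 55.4% at the larger change simulated. The simulation changed 200 of 19682 genes, in both directions, whereas 5433 genes were called lower and 1643 higher in the data. Its counts were drawn at the dispersion of the trend. The shares called therefore do not give the power of the real comparison. Nor do the false calls measure replicate spread beyond the trend. A gene that was not called may still differ.

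Same-numbered libraries were taken to come from 1 animal. The labels say only biological replicate 1 and 2, and pig 1 and pig 2 are named only in the headings of the 4 columns not used, so this pairing is an assumption, on which the differences within a replicate and the blocked fits rest. Deviations of same-numbered libraries from their group means correlated with an r of 0.16 across genes. The edgeR fit with the replicate number as a term is given where it changes a call of the set. The same fit in DESeq2 is given only in the closing section and for GADD45A, MRTFB and the heat shock genes. Other alternatives were RLE, upper-quartile and library-size scaling, 2 other filters, DESeq2 1.42.0, GFP-HI thinned to the GFP-NEG depth, and each library left out. The members and lists were chosen with earlier results of these data known. All members are accounted for. Named with values were called members, the largest change of each role group, FOS, JUN, EGR1, ATF3, MYC, NR4A1, ZFP36, DUSP1 and LGR5, and of each pathway list up to 2 called genes in each direction. SOCS1, SOCS3, FOSL1, CEBPD, ZFP36L1, ZFP36L2, MCL1, RELA, ATF4 and DNAJB1 were given values after these had been seen.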

Additional observations from a re-analysis of the deposited data

How the results depend on the processing

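The count of 29 early response genes lower in GFP-HI lay between 25 and 33 under the scalings, filters, thinning, DESeq2 and block fits, and the median log2 fold change between -2.40 and -1.95. With single libraries left out the count ranged from 6 to 23, the median from -2.30 to -1.57, and the count of higher genes from 0 to 1. The replicate block called 30 lower, of which 28 were among the 29: it ended the call of EGR3 and added FOSL2 and SOCS3, and it changed no other call of the set. With no filter TNFAIP3, GADD45B and EGR3 lost their calls, and with the 10 CPM filter JUNB and GADD45A did, while EGR3 and SIK1 were not tested. DESeq2 with the replicate block, added after the data were seen, called 33: it added FOS, FOSL2, JUN (adjusted p = 0.0040), KLF10 (0.047) and GADD45G (0.048), and ended the call of EGR3 (0.21). RLE scaling called 31, and upper-quartile and library-size scaling 32 each, with all 29 kept in these 3. Of all tested genes, the main fit called 27.6% lower. The number was 3610 of 16520 genes after thinning, 1078 of 10260 with the 10 CPM filter and 3263 of 26737 under DESeq2 with the block. For the 3 scalings, the edgeR block and the fit with no filter it is not given, so those counts of the set have no background here. Scaling moved the median of all tested genes from -0.25 to -0.29, -0.58 and -0.68. Over 26737 genes it was -1.30 under DESeq2, -1.31 under DESeq2 with the block and -1.21 with no filter. In these fits the median of all tested genes lay closer to that of the set. The median of all tested genes was 0.092 where at least 10 CPM in 2 libraries were required, and -0.59 to 0.032 with single libraries left out. Within replicate 2 the median difference of the set was -3.04 with scaling by library size alone, against -2.38.

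Signs turned for 3 early response genes that were not called: CEBPD (-0.11 by library size alone, -0.053 by upper quartile, -0.066 thinned, and -0.55 to 1.56 with single libraries left out), EGR1 (-0.91 to 0.57 with single libraries left out) and ZFP36L1 (-0.0045 by library size alone). Pathway genes lower and higher in GFP-HI numbered 12 to 20 and 0 to 6 with single libraries left out, and marker genes higher 1 to 6. With at least 10 CPM in 2 libraries, 0 pathway genes and 3 marker genes were higher. The number of all tested genes called lower in GFP-HI went from 5433 to 3610 after thinning (16520 genes tested), 3263 under DESeq2 with the block and 1078 with the 10 CPM filter (10260 genes tested). The number of all tested genes called higher in GFP-HI was 1643, and 1083, 888 and 419 with upper-quartile scaling, library size alone and the 10 CPM filter. The cause of these changes was not tested, except that fewer genes or libraries entered the filtered, thinned and reduced fits. GFP-NEG had 6292253 and 7045652 counts in all. Of these, EGR3 had 6 and 18, FOSL1 28 and 41, CEBPD 63 and 22, and SOCS1 63 and 61. Counting error therefore weighs on their values. It also weighs on the called genes MAFF and SIK1, which had few reads in the bright cells (MAFF 62 and 12, SIK1 24 and 56).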
